A study of Saccharomyces cerevisiae with 8 samples.

Results

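The respiratory chain and ATP synthase genes are 31 nuclear genes of budding yeast, Saccharomyces cerevisiae, that encode subunits of complexes II, III, IV and V of the mitochondrial inner membrane. They were taken by symbol from the 6034 coding targets of the expression tables, 4 for complex II, 9 for complex III, 7 for complex IV and 11 for complex V, without the isoform genes CYC1, CYC7, COX5A and COX5B. Poly-A RNA was sequenced from strain W303a, a haploid laboratory strain of mating type a, grown at 30 °C in rich medium with 2% dextrose to an OD600 of 0.2 to 0.4. The 4 groups of 2 libraries were cells held for 5 min at 30 °C, cells held for 5 min at 39 °C (heat shock), and the same pair of temperatures with 5ph-IAA. To deplete Ifh1, a coactivator of ribosomal protein genes, the treatment text pairs 1 µM β-estradiol with 5 µM 5ph-IAA for 30 min. 5ph-IAA is an auxin derivative used to degrade proteins that carry a degron tag. The design text names anchor away instead, a method that removes a tagged protein from its nuclear site. Whether the other cells received solvent or β-estradiol, and whether all groups carried the same tagged strain, is not given in the labels, and biological replicates are numbered without naming cultures. The depletion acts on the protein, so no mRNA level given here checks it.

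In respiring yeast, electrons enter the chain through complex II (succinate dehydrogenase, also an enzyme of the citric acid cycle) and through single-protein NADH dehydrogenases, since this species has no proton-pumping complex I. Complex III (the cytochrome bc1 complex) passes them to cytochrome c, complex IV (cytochrome c oxidase) passes them to oxygen, and complex V (ATP synthase) uses the proton gradient to make ATP. On glucose most of these genes are held at a low level, and the Hap2/3/4/5 complex, which binds CCAAT boxes in their promoters, activates them when glucose runs low. Msn2 and Msn4 bind the stress element AGGGG, and Hsf1 binds repeats of GAA and TTC.

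The library totals ran from 7717767 to 21025464 estimated counts, with 21025464 and 19974567 in the 39 °C group without 5ph-IAA and at most 10118860 elsewhere. Replicates of a group differed by more than counting noise, with 3.40 to 4.51 as the chi-square divided by its degrees of freedom. Levels are in TPM, a transcript's length-corrected share of the library. Ribosomal protein genes took 39.7% and 40.7% of TPM in unheated cells and 19.3% and 19.8% after heat shock. Under 5ph-IAA they took 17.1% and 17.3% unheated and 10.3% in both heated libraries, so the share available to all other genes differed between groups. The 6 a-cell markers summed to 227 to 1099 TPM over the libraries, with MFA1 and MFA2 listed at 0 and all 4 tested ones lower on heat shock, and the 4 alpha-cell markers summed to 25.8 to 53.5 TPM.

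Promoters were read from the R64 genome of strain S288C, so that upstream regions of members can be set side by side. The member with the highest and the member with the lowest heat shock change in each complex are shown, from 250 bases before to 50 bases after the first base of the start codon. Capitals mark CCAAT on either strand, AGGGG on either strand, and GAA and TTC with 2 bases between them, which may overlap the others. The complex II pair is SDH4 (chrIV:817700-817999, plus strand) and SDH3 (chrXI:179417-179716, plus strand), the complex III pair is QCR8 (chrX:106184-106483, plus strand) and QCR2 (chrXVI:919131-919430, plus strand), the complex IV pair is COX13 (chrVII:144558-144857, plus strand) and COX4 (chrVII:150122-150421, minus strand), and the complex V pair is ATP7 (chrXI:407940-408239, minus strand) and ATP5 (chrIV:1058765-1059064, minus strand). The sequenced strain was W303a, whose own bases were not used here.
SDH4: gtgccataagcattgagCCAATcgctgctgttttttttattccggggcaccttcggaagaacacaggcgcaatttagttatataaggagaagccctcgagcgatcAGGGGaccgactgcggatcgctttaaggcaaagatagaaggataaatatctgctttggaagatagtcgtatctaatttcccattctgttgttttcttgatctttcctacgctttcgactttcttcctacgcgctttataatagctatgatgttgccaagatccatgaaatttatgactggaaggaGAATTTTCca
SDH3: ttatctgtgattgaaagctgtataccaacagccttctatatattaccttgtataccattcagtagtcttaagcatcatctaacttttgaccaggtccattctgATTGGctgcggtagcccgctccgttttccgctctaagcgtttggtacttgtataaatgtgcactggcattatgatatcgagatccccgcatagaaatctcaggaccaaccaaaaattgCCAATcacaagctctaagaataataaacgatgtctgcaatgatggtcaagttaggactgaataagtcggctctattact
QCR8: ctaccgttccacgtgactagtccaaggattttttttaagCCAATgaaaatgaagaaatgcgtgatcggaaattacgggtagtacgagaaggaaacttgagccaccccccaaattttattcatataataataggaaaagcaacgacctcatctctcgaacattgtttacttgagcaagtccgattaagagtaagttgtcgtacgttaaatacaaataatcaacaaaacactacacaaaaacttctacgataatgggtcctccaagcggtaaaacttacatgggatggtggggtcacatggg
QCR2: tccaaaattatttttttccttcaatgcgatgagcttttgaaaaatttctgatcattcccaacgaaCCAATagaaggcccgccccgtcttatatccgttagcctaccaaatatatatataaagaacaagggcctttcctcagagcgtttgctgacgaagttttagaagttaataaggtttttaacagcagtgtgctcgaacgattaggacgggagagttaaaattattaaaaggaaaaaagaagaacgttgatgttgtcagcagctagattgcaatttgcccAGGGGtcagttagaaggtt
COX13: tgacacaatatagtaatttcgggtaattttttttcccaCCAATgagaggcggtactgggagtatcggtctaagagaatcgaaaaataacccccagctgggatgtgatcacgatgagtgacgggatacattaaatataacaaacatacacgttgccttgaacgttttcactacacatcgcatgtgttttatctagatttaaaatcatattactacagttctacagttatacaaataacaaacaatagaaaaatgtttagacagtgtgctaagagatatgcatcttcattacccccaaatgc
COX4: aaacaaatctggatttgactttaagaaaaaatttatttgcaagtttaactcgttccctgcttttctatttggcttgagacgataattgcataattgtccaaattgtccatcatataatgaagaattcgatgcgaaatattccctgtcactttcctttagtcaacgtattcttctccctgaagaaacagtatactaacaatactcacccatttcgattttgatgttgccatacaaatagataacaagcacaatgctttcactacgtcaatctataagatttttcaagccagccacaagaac
ATP7: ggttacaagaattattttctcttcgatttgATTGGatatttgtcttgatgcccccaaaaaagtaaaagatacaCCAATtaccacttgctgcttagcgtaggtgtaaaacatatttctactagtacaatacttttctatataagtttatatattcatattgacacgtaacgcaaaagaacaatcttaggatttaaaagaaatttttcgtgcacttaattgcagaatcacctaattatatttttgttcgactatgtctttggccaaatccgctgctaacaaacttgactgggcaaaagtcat
ATP5: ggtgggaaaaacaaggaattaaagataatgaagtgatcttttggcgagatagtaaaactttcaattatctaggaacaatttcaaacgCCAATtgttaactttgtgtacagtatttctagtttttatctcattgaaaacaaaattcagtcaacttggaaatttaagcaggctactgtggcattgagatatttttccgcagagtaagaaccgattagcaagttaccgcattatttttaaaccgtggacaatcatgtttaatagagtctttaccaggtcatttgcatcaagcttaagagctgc

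CCAAT on either strand was in 27 of the 31 member windows (87.1%) and in 43.4% of the windows of 5993 coding targets. COR1, CYT1, COX4 and ATP1 had none. In SDH4 the box began 233 bases before the start codon, in QCR8 211 bases before it and in COX13 212 bases before it. ATP7 held a pair of boxes, 220 and 177 bases before the start codon. AGGGG on either strand was in 14 member windows (45.2%) and in 21.6% of all windows, and it cannot overlap CCAAT. SDH4 held it 145 bases before the start codon, and QCR2 held it only inside the coding sequence. GAA and TTC with 2 bases between them were in 3 member windows (9.68%), those of SDH4, ATP3 and ATP17, and in 11.8% of all windows. SDH4 held them only inside the coding sequence. A match of letters is a description of these windows and does not show that a factor binds there.

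In untreated cells at 30 °C the complex II genes were the lowest of the 29 respiratory genes that could be tested. The median level of the 4 genes was 87.9 TPM, against 326 TPM for complex III, 429.9 TPM for the 5 measured genes of complex IV and 326 TPM for complex V. SDH1, the flavoprotein that oxidises succinate, had the lowest level of the 29 at 65.1 ± 1.37 TPM (SD, n = 2). ATP15, the epsilon subunit of the ATP synthase stalk, had the highest at 1314 ± 17.1 TPM, but its target is only 189 bases long with an effective length of 13.2 bases, and its counts were 246 and 261. Within complex III the small subunits QCR6, QCR7 and QCR8 stood between 489 and 515 TPM, above the core proteins COR1 and QCR2 at 215 and 209 TPM.

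A pair of complex IV subunits could not be followed. COX9 (180 bases) had 0 counts in all 8 libraries, and COX7 (183 bases) had 5 and 5 counts at 30 °C, 10 and 15 at 39 °C, and under 5ph-IAA 2 and 0 unheated and 6 and 6 heated, too few for the filter on low counts. Very short targets were poorly measured throughout, since 115 of 137 targets under 200 bases were at 0 in every library, against 33 of 5897 longer ones. The other 29 members passed the filter, all with whole counts, none overlapping another annotated gene, and the counts of members below are out of these 29.

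The 31 genes together took 1.06% and 1.03% of TPM in unheated cells and 1.64% in both heat shock libraries. Under 5ph-IAA they took 1.62% and 1.61% unheated and 1.84% and 1.78% heated. The complexes did not share this rise in equal measure. Complex II took 0.0361% and 0.0349% of TPM at 30 °C and 0.0995% and 0.101% at 39 °C. Complex III took 0.32% and 0.315% at 30 °C and 0.658% and 0.655% at 39 °C, complex IV 0.232% and 0.215% against 0.318% and 0.309%, and complex V 0.468% in both libraries against 0.563% and 0.579%. In TPM both 39 °C libraries lay above both 30 °C libraries for each complex. As a share of counts complex V went the other way, from 0.345% and 0.352% at 30 °C to 0.327% and 0.336% at 39 °C. In bulk RNA, fewer cells of a type and less RNA per cell cannot be told apart, and a share says nothing of the amount of RNA per cell.

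**Figure D1:**
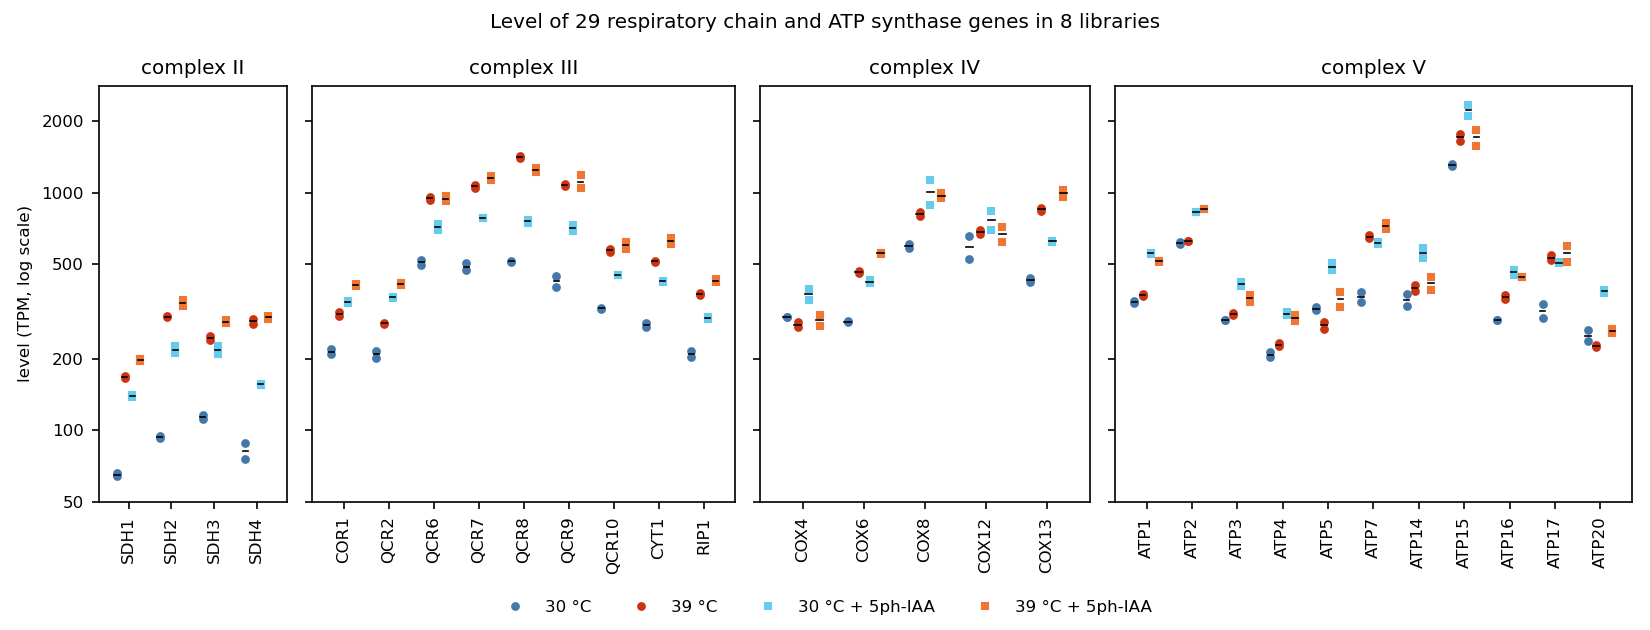
Level of each of the 29 tested genes in TPM (log scale), by complex, with 1 point per library, 2 libraries per group, and a bar at the group mean. The complex II genes start lowest at 30 °C, and all complex II and III genes are higher at 39 °C than at 30 °C, while the complex V genes ATP1 and ATP2 differ little between temperatures.

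Heat shock without 5ph-IAA addressed how these genes behaved in cells without the depletion treatment. Within 5 min, 20 members rose, where 42.5% of all tested genes were called higher, and 3 fell, where 39.7% were called lower (edgeR quasi-likelihood test, adjusted p under 0.05). The 23 called in either direction compare with 82.2% of all tested genes, so the share of members called at all was near that of all genes, and the members differed from the background in direction. All 4 complex II genes and all 9 complex III genes rose. In complex IV 3 of 5 rose and 1 fell, and in complex V 4 of 11 rose and 2 fell. The median log2 fold change was 1.39 for complex II, 0.76 for complex III, 0.32 for complex IV and 0.01 for complex V, beside 0.04 for all tested genes. Of the 20 rises, 17 were called in all 15 alternative settings, the exceptions being COX8, ATP15 and ATP16. The split of 20 and 3 became 18 and 6 when library totals alone were used, and complexes II and III had every gene higher in all 15 alternatives.

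Of complex II, SDH4 (YDR178W, chromosome IV, 817950 to 818495) and SDH3 (YKL141W, chromosome XI, 179667 to 180263) encode the membrane anchor that carries electrons to ubiquinone. SDH4 levels were 88.5 and 75.5 TPM in unheated cells and 281 and 294 TPM after heat shock. With 5ph-IAA, SDH4 had 156 and 156 TPM unheated and 304 and 294 TPM heated. Both 39 °C libraries lay far above both 30 °C libraries, with and without 5ph-IAA. The log2 fold change without 5ph-IAA was 1.68 ± 0.07 (adjusted p = 2.33e-11), the highest of all members and above 89.6% of tested genes. SDH3 levels were 112 and 117 TPM in unheated cells and 241 and 250.5 TPM after heat shock. With 5ph-IAA, SDH3 had 209 and 227 TPM unheated and 292 and 282 TPM heated. SDH3 rose least in the complex, by 0.97 ± 0.07 (adjusted p = 9.63e-09), and its 4 groups did not overlap. SDH2 (YLL041C, chromosome XII, 53131 to 53931), the iron-sulfur subunit, rose by 1.55 ± 0.06 and SDH1 by 1.23 ± 0.04.

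In complex III the change was graded among subunits. QCR8 (YJL166W, chromosome X, 106434 to 106718) encodes a small subunit next to cytochrome b. QCR8 levels were 514 and 516 TPM in unheated cells and 1430.2 and 1397 TPM after heat shock. With 5ph-IAA, QCR8 had 766 and 750.3 TPM unheated and 1279 and 1222 TPM heated. It rose by 1.33 ± 0.05 (adjusted p = 2.76e-11), the most in the complex, and its groups did not overlap. QCR2 (YPR191W, chromosome XVI, 919381 to 920487) encodes a core protein of the matrix side. QCR2 levels were 216 and 202 TPM in unheated cells and 284 and 279 TPM after heat shock. With 5ph-IAA, QCR2 had 365 and 362 TPM unheated and 416 and 409 TPM heated. QCR2 rose least, by 0.30 ± 0.04 (adjusted p = 1.89e-05), followed by its partner COR1 with 0.40 ± 0.04. The catalytic subunits lay between them, with 0.76 ± 0.05 for CYT1 (cytochrome c1) and 0.71 ± 0.05 for RIP1 (the Rieske iron-sulfur protein). The other small subunits rose by 1.22 ± 0.13 (QCR9), 0.99 ± 0.06 (QCR7), 0.77 ± 0.05 (QCR6, the acidic hinge protein) and 0.68 ± 0.10 (QCR10). With these unequal changes the ratio of the highest to the lowest level in complex III went from 2.46 at 30 °C to 5.01 at 39 °C. With 5ph-IAA the ratio widened less, from 2.63 at 30 °C to 3.06 at 39 °C.

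In complex IV the members moved in both directions. COX13 (YGL191W, chromosome VII, 144808 to 145197) encodes a subunit that is not essential for assembly of the complex. COX13 levels were 437 and 422 TPM in unheated cells and 864 and 842 TPM after heat shock. With 5ph-IAA, COX13 had 629.7 and 622 TPM unheated and 964 and 1027 TPM heated. Its rise of 0.86 ± 0.05 (adjusted p = 9.04e-10) was the largest in the complex, and every 39 °C library lay above every 30 °C library. COX4 (YGL187C, chromosome VII, 149704 to 150171) encodes a zinc-binding subunit. COX4 levels were 300.2 and 299.7 TPM in unheated cells and 285 and 271 TPM after heat shock. With 5ph-IAA, COX4 had 353 and 394 TPM unheated and 306 and 276 TPM heated. COX4 fell by 0.24 on the log2 scale (SE 0.07, adjusted p = 0.00605), a call not made on the TPM scale. COX6 rose by 0.57 ± 0.05 and COX8 by 0.32 ± 0.10, while COX12 gave 0.08 ± 0.10 and was not called (adjusted p = 0.474).

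In complex V members also moved in both directions. The catalytic head did not pass the test, with −0.03 ± 0.04 for ATP1 (alpha) and −0.10 ± 0.04 for ATP2 (beta, adjusted p = 0.0525). ATP2 was called lower in 6 of the 15 alternatives (library totals alone, DESeq2, no filter, the replicate block, the compared groups alone, and without the first 30 °C library). ATP1 was called in 3, lower by library totals alone at −0.11 and higher on both TPM scales at up to 0.10. In the central stalk ATP15 (epsilon) rose by 0.25 ± 0.10 and ATP16 (delta) by 0.19 ± 0.06, and both calls were lost in 4 of the 15 alternatives (library totals alone, DESeq2, and without the first 30 °C or the second 39 °C library), while ATP3 (gamma) gave −0.04 ± 0.05. The peripheral stalk held both extremes of the complex. ATP7 (YKL016C, chromosome XI, 407465 to 407989) encodes subunit d of this stalk. ATP7 levels were 381 and 349 TPM in unheated cells and 644 and 663 TPM after heat shock. With 5ph-IAA, ATP7 had 620.3 and 607 TPM unheated and 706 and 747 TPM heated. It rose by 0.71 ± 0.05 (adjusted p = 9.48e-09). ATP5 (YDR298C, chromosome IV, 1058176 to 1058814) encodes OSCP, which joins the stalk to the head. ATP5 levels were 331 and 321 TPM in unheated cells and 285 and 268 TPM after heat shock. With 5ph-IAA, ATP5 had 505 and 473 TPM unheated and 382 and 332 TPM heated. ATP5 fell by 0.37 (SE 0.06, adjusted p = 0.000122), and both 39 °C libraries lay below both 30 °C libraries, with and without 5ph-IAA. Also in this stalk, ATP4 (subunit b) and ATP14 (subunit h) gave 0.01 ± 0.05 and 0.04 ± 0.08, neither called. Of the membrane subunits, ATP17 (subunit f) rose by 0.61 ± 0.08 and ATP20 (subunit g, of the dimer interface) fell by 0.28 (SE 0.08), a fall not called without the second 30 °C library.

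**Figure D2:**
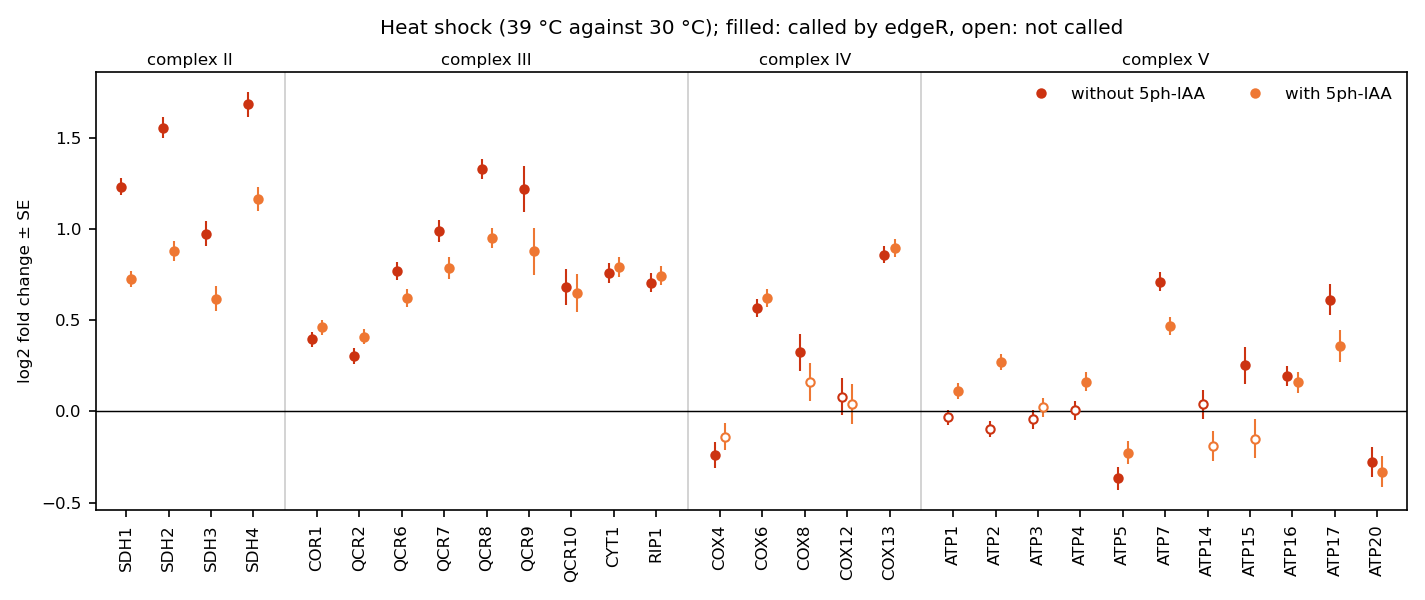
Log2 fold change at 39 °C against 30 °C with its SE for the 29 tested genes, by complex, without and with 5ph-IAA (2 libraries per group). Filled points passed the edgeR test. SDH4 at 1.68 is highest and ATP5 at −0.37 lowest without 5ph-IAA, and each complex II gene has a higher point without 5ph-IAA than with it.

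Heat shock with 5ph-IAA gave a like picture from separate libraries. Here 21 members rose, where 38.0% of tested genes were called higher, and 2 fell, where 38.3% were called lower, or 23 in either direction, where 76.2% were. All 4 genes of complex II and all 9 of complex III rose again, with 2 of 5 in complex IV and 6 of 11 in complex V. The median log2 fold change was 0.80 for complex II, 0.74 for complex III, 0.16 for complex IV and 0.11 for complex V, beside 0.01 for all tested genes. The counts depended on scaling, with 15 higher and 10 lower by library totals alone, and 16 and 7 by limma on log2(TPM + 1). Complex II kept 4 of 4 higher in all 15 alternatives and complex III kept 8 or 9 of 9.

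The largest rises with 5ph-IAA were 1.16 ± 0.07 for SDH4, 0.95 ± 0.06 for QCR8, 0.90 ± 0.05 for COX13 and 0.88 ± 0.05 for SDH2. Each of these also rose without 5ph-IAA. In all, 18 members rose in both heat shocks. Of all tested genes 42.5% were called higher without and 38.0% with 5ph-IAA. The share called higher in both was not computed, so the 18 cannot be set against it. ATP5 and ATP20 fell in both, by 0.23 (SE 0.06) and 0.33 (SE 0.08) with 5ph-IAA, the ATP5 call being lost without the second library at 39 °C with 5ph-IAA. COX8 and ATP15 were called higher without 5ph-IAA and gave 0.16 ± 0.10 and −0.15 ± 0.11 with it, while ATP1, ATP2 and ATP4 were called higher with it. Those 3 calls depended on scaling, since ATP1, at 0.11, and ATP4, at 0.16, were negative on the TPM scale and by library totals alone, and ATP2, at 0.27, was negative with library totals alone. ATP16 also rose with 5ph-IAA, by 0.16, and was negative under the same 2 scalings as ATP1. Across the 29 members the changes of the 2 heat shocks, which share no library, had Pearson's r of 0.919 and Spearman's rho of 0.914. Over all 5734 tested genes these were 0.875 and 0.898, a description across genes that are not independent.

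5ph-IAA at 30 °C against 30 °C alone addressed these genes in unheated cells meant to lack Ifh1. Complex II was again the set in which all 4 genes rose. Of all members 5 rose, where 23.6% of tested genes were called higher, and 6 fell, where 28.1% were called lower, and 11 were called in either direction, where 51.7% were, so all 3 shares were below those of all tested genes. The 5 were SDH1 (0.45 ± 0.05), SDH2 (0.58 ± 0.06), SDH3 (0.29 ± 0.07), SDH4 (0.28 ± 0.08) and QCR2 (0.15 ± 0.04). The SDH1 and SDH2 calls were made in all 15 alternatives, while SDH3, SDH4 and QCR2 depended on single libraries. The SDH3 call was lost without the first 30 °C library or the second 5ph-IAA library, the SDH4 call without the second 30 °C library, and the QCR2 call without the second library of either group.

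This comparison was the most sensitive to scaling. The median of all tested genes was −0.02 in the main fit, 0.38 with library totals alone and 0.61 by limma on log2(TPM + 1). The ribosomal protein share, given above, was lower in these 5ph-IAA libraries, and its part in this was not tested. Under library totals 26 members were called higher and none lower, on the TPM scale 29 were called higher and none lower, and DESeq2 called 5 higher and 2 lower. These scalings shift the genes of a library nearly alike, so differences from the median of all tested genes are close under all of them by construction and are no sign of stability. As a description, complex II lay 0.38 to 0.39 above it under the 4 scalings, complex III between 0.03 and 0.01 below it, complex IV between 0.09 and 0.07 below it and complex V between 0.02 and 0.04 above it.

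SDH2 and COX4 mark the range of this comparison. SDH2 levels were 94.3 and 93.3 TPM in unheated cells and 303.2 and 299.5 TPM after heat shock. With 5ph-IAA, SDH2 had 212 and 226 TPM unheated and 335 and 354 TPM heated. The adjusted p of its rise was 2.95e-06. In TPM its 5ph-IAA libraries at 30 °C lay above those without it by more than the spread between replicates. That separation is not particular to SDH2. By limma on log2(TPM + 1), all 29 members and 4865 of 5734 tested genes were called higher in this comparison. COX4, with the levels given above, fell by 0.33 (SE 0.07, adjusted p = 0.00197), but it was higher with 5ph-IAA in TPM, and its change was positive with library totals alone too. The same held for the other 5 falls, of QCR6, RIP1, COX12, ATP2 and ATP3, which the main fit put between −0.28 and −0.14 and which turned positive under both scalings. ATP2 (YJR121W, chromosome X, 647607 to 649142) was lowest in complex V with −0.22 ± 0.04 (adjusted p = 0.000922). ATP2 levels were 609 and 622 TPM in unheated cells and 629.7 and 630.0 TPM after heat shock. With 5ph-IAA, ATP2 had 829 and 829 TPM unheated and 857 and 855 TPM heated. In TPM its level differed more between the 5ph-IAA and untreated libraries than between temperatures.

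Other members at the ends of their complexes did not pass the test at 30 °C. QCR10 (YHR001W-A, chromosome VIII, 107826 to 108122, 2 coding exons), a small subunit of complex III, had the lowest change there, −0.18 ± 0.11 (adjusted p = 0.184). QCR10 levels were 324 and 329 TPM in unheated cells and 566 and 581 TPM after heat shock. With 5ph-IAA, QCR10 had 449.6 and 452 TPM unheated and 624 and 583 TPM heated. COX8 (YLR395C, chromosome XII, 909729 to 909965), the highest in complex IV, gave 0.12 ± 0.11 (adjusted p = 0.368). COX8 levels were 607 and 587 TPM in unheated cells and 835 and 799.7 TPM after heat shock. With 5ph-IAA, COX8 had 889.7 and 1129 TPM unheated and 949.9 and 996 TPM heated. The 5ph-IAA replicates of COX8 at 30 °C were far apart. ATP15 (YPL271W, chromosome XVI, 30079 to 30267) was highest in complex V with 0.11 ± 0.11 (adjusted p = 0.414). ATP15 levels were 1302 and 1326 TPM in unheated cells and 1658 and 1773 TPM after heat shock. With 5ph-IAA, ATP15 had 2355 and 2107 TPM unheated and 1845 and 1578 TPM heated. It was highest at 30 °C with 5ph-IAA on the TPM scale.

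**Figure D3:**
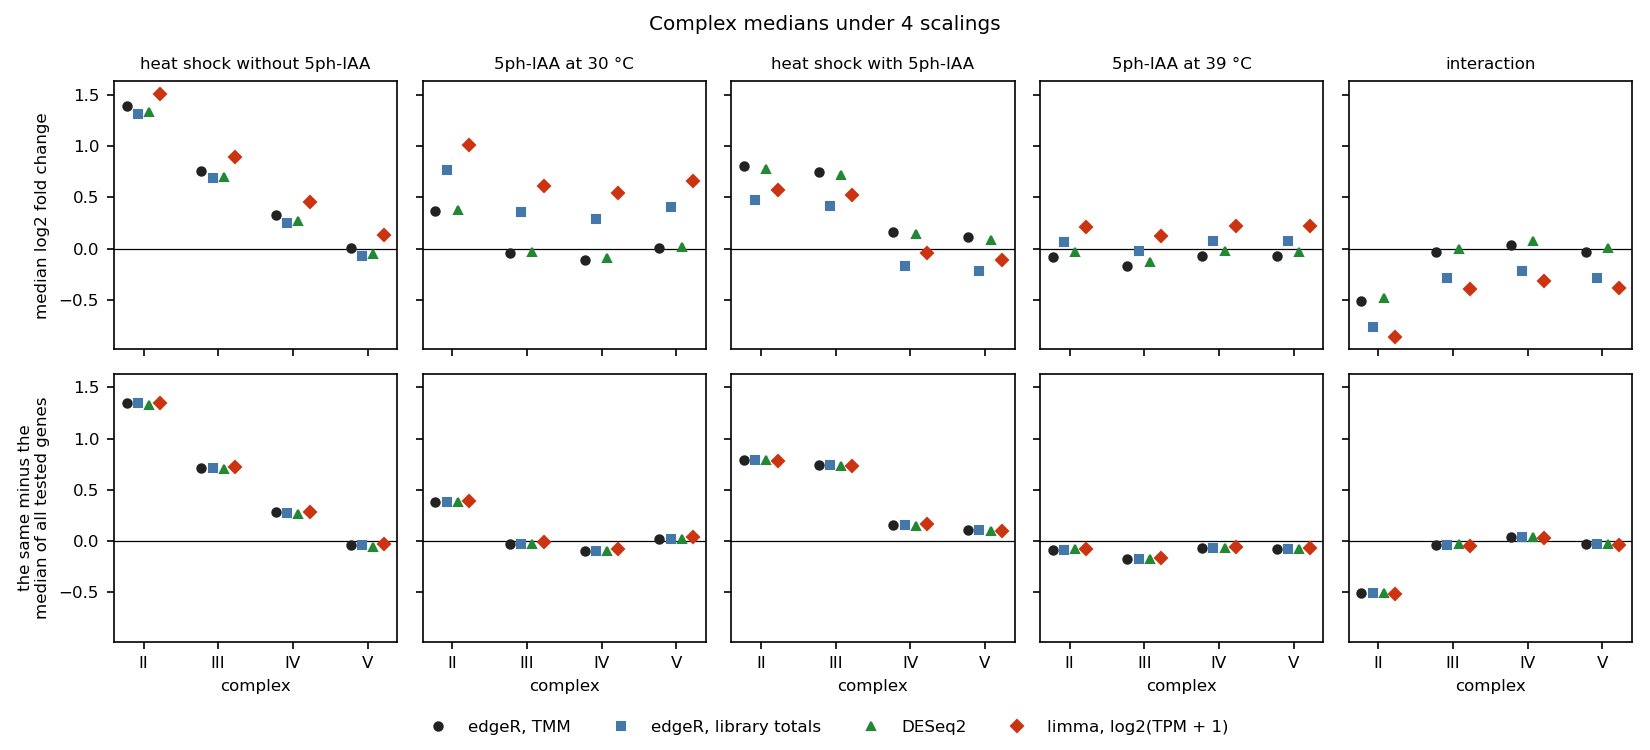
Median log2 fold change of each complex in the 5 comparisons under 4 scalings (top), and the same minus the median of all tested genes (bottom). The top points separate by scaling, most for 5ph-IAA at 30 °C, while below the shift common to all genes is subtracted, so that the 4 scalings must nearly coincide. There complex II is highest in both heat shocks and in 5ph-IAA at 30 °C and lowest in the interaction.

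At 39 °C, 5ph-IAA against none gave 4 members higher, where 22.5% of tested genes were called higher, and 10 lower, where 22.0% were called lower, or 14 in either direction, where 44.5% were. COR1, QCR2, ATP1 and ATP2 were the 4 higher ones, from 0.11 for COR1 to 0.26 ± 0.04 for QCR2. QCR8 was the lowest, at −0.47 ± 0.05 (adjusted p = 4.99e-06), followed by COX12 (−0.32 ± 0.10) and QCR6 (−0.30 ± 0.05). QCR2 and QCR8, both of complex III, were called in opposite directions in every alternative. The other 12 calls were each lost in at least 1 of the 15 alternatives. Without the first 39 °C library 1 member was called higher, without the second 39 °C library 2 were called lower, and without the second library at 39 °C with 5ph-IAA 3 were called lower. SDH4, QCR7, COX4, ATP7, ATP14 and ATP17, called lower, turned positive on the TPM scale, and ATP7 did so with library totals as well. The split was 8 higher and 2 lower by library totals alone, 19 and 1 by limma on log2(TPM + 1), and 4 and 2 by DESeq2. SDH1, SDH2 and SDH3 did not pass the test at 39 °C, with −0.05 ± 0.04, −0.10 ± 0.05 and −0.07 ± 0.06, but on both TPM scales they were called higher, at up to 0.24, 0.19 and 0.22.

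The interaction subtracts the change of heat shock alone from the change of heat shock under 5ph-IAA, and tests whether the 2 heat shocks differ. All 4 complex II genes rose less on heat shock with 5ph-IAA. The differences were −0.51 ± 0.06 for SDH1 (adjusted p = 1.73e-05), −0.68 ± 0.08 for SDH2 (adjusted p = 1.06e-05), −0.36 ± 0.10 for SDH3 (adjusted p = 0.00743) and −0.52 ± 0.10 for SDH4 (adjusted p = 0.000551). These 4 were called lower in all 14 alternatives run for the interaction. SDH2 rose 2.94-fold without and 1.84-fold with 5ph-IAA. The comparisons share the 30 °C and 39 °C libraries, so a high value at 30 °C with 5ph-IAA enters both the rise at 30 °C and the smaller heat shock change.

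Outside complex II the interaction passed for 4 of 25 tested members. QCR8 gave −0.38 ± 0.08 (adjusted p = 0.00133) and was called in every alternative. ATP7 gave −0.24 ± 0.07 (adjusted p = 0.0112), not called without the second 39 °C library. ATP15 gave −0.40 ± 0.15 (adjusted p = 0.036), not called in 5 of the 14 alternatives, namely DESeq2 and without the first 30 °C library, the second 39 °C library, the first library at 30 °C with 5ph-IAA or the second at 39 °C with 5ph-IAA. ATP2 was the member whose heat shock change was higher with 5ph-IAA, by 0.37 ± 0.06 (adjusted p = 0.000237), a call not made on the TPM scale. In all, 1 member was higher, where 26.0% of tested genes were called higher, and 7 were lower, where 22.9% were called lower, or 8 in either direction, where 48.9% were, so the share of lower members was near that of all tested genes. The split was 1 and 22 by library totals alone, 0 and 26 by limma on log2(TPM + 1), and 2 and 6 by DESeq2. In the main fit the median of complex II lay 0.51 below that of all tested genes and those of complexes III to V within 0.04 of it, which does not settle these splits.

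**Figure D4:**
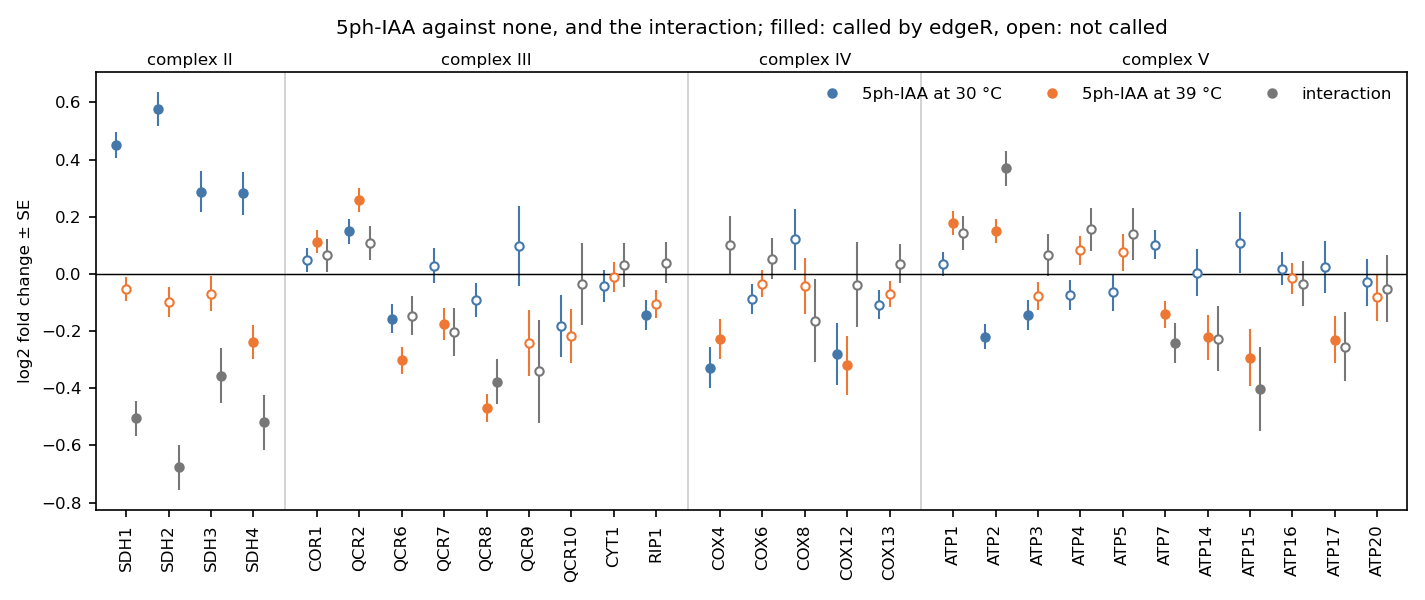
Log2 fold change with its SE for 5ph-IAA at 30 °C, 5ph-IAA at 39 °C and the interaction, for the 29 tested genes by complex (2 libraries per group, main fit). Filled points passed the edgeR test. Complex II genes are above 0 at 30 °C and below 0 in the interaction, and ATP2 is the filled point above 0 in the interaction.

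Genes that build or feed the complexes were counted from lists of textbook members. The 4 complex II assembly factors all rose on heat shock without 5ph-IAA, where 42.5% of all tested genes did, led by SDH6 at 2.74 ± 0.16 and SDH8 at 1.47 ± 0.07, and SDH5, which inserts the flavin, at 1.00 ± 0.08. In the interaction 3 of the 4 were lower (2 by DESeq2), where 22.9% of all tested genes were, again with SDH6 first at −0.87 ± 0.23. Of the 3 complex II paralogs, 2 rose, SHH4 by 1.93 ± 0.26 and YJL045W by 1.70 ± 0.18, from levels of 2.04 to 6.09 TPM at 30 °C. SHH3, the paralog of SDH3, was not called.

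Assembly factors of the other complexes were mixed. The counts below stand beside the 42.5% of all tested genes called higher and 39.7% called lower on heat shock. For complex IV 18 of 31 rose and 4 fell, led by COX20 at 2.40 ± 0.09, a chaperone of Cox2, and COA2 at 1.48 ± 0.17. The split was 15 and 6 with library totals alone. For complex III 3 of 10 rose and 4 fell, with CBP4 at 1.10 ± 0.09 and BCS1, which inserts the Rieske protein, at −0.63 ± 0.07, and on the log2(TPM + 1) scale 4 rose and 2 fell. For ATP synthase 4 of 10 rose and 4 fell, with AEP3 at 3.52 ± 0.08 and ATP23 at −0.92 ± 0.11, and the split was 5 and 3 on that scale. In the interaction, where 22.9% of all tested genes were called lower and 26.0% higher, 8 of 31 complex IV factors were lower, a share near the background, and 1 was higher, and 4 each of the complex III and ATP synthase lists were lower with 0 and 1 higher. With library totals alone these became 17, 7 and 6 lower. DESeq2 gave 4, 0 and 1.

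Several genes around the ATP synthase and at the entry of electrons rose more than any of the subunits. STF2 and STF1, small proteins that act with the ATPase inhibitor, rose on heat shock by 4.04 ± 0.07 and 2.72 ± 0.11, and the inhibitor INH1 by 0.57 ± 0.11. STF2 levels were 239.8 and 243 TPM in unheated cells and 4364 and 4322 TPM after heat shock. With 5ph-IAA, STF2 had 399 and 416 TPM unheated and 3361 and 3709 TPM heated. The heated and unheated STF2 libraries were far apart with and without 5ph-IAA. The other 2 tested genes of that list were not called. Of 6 dehydrogenases 5 rose, where 42.5% of all tested genes did, led by CYB2 (L-lactate, 4.30 ± 0.07), NDE2 (external NADH, 3.67 ± 0.24), GUT2 (glycerol 3-phosphate, 2.97 ± 0.25) and NDI1 (internal NADH, 2.34 ± 0.07). NDE1, the other external NADH dehydrogenase, was the 1 that fell, by 0.64 (SE 0.04), and is named after its values were seen. COX26, a small protein of the III to IV supercomplex, rose by 4.50 ± 0.62 from 0 and 11.8 TPM at 30 °C, and RCF2, which binds the supercomplex, fell by 1.15 (SE 0.06).

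Among all genes listed here CYC7 had the largest change on heat shock. It encodes the minor form of cytochrome c, raised in low oxygen. CYC7 levels were 26.4 and 24.4 TPM in unheated cells and 2033 and 2001 TPM after heat shock. With 5ph-IAA, CYC7 had 143 and 123 TPM unheated and 2023 and 1987 TPM heated. Its log2 fold change on heat shock was 6.18 ± 0.08 without and 4.15 ± 0.06 with 5ph-IAA, and CYC1, the major form, fell by 0.47 (SE 0.06) without it. COX5B, the hypoxic form of complex IV subunit 5, rose by 2.22 ± 0.07, while COX5A, the aerobic form, gave −0.06 ± 0.06 and was not called. COX5B levels were 47.8 and 41.5 TPM in unheated cells and 235 and 220.2 TPM after heat shock. With 5ph-IAA, COX5B had 168 and 167 TPM unheated and 343 and 349 TPM heated. At 39 °C with 5ph-IAA the COX5B level was about that of COX5A, at 338 and 315 TPM. With 5ph-IAA at 30 °C, CYC7 and COX5B rose by 1.73 ± 0.12 and 1.26 ± 0.08 and CYC1 fell by 1.04 (SE 0.06), and COX5A was lower by 0.35 (SE 0.07) in the main fit but positive in TPM and by library totals alone.

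Of the 9 regulators 7 rose on heat shock without 5ph-IAA and 1 fell, or 8 in either direction, beside 42.5%, 39.7% and 82.2% of all tested genes. HAP4, the activating and limiting subunit of the CCAAT-binding complex, had the largest difference between the heat shocks of the 9. HAP4 levels were 99.6 and 89.2 TPM in unheated cells and 201 and 212 TPM after heat shock. With 5ph-IAA, HAP4 had 80.2 and 78.6 TPM unheated and 374 and 365 TPM heated. Its highest level was at 39 °C with 5ph-IAA and its lowest at 30 °C with 5ph-IAA. HAP4 rose by 1.00 ± 0.05 without and by 2.44 ± 0.06 with 5ph-IAA, with an interaction of 1.44 ± 0.08 (adjusted p = 6.08e-09), or 1.19 by library totals and 1.08 by limma on log2(TPM + 1). Of the 9 regulators 2 were called higher in the interaction, HAP4 among them, and 4 lower, beside 26.0% and 22.9% of all tested genes. A link between the regulators and the members was not tested. With 5ph-IAA at 30 °C HAP4 fell by 0.90 (SE 0.06), or by 0.50 and 0.25 under those scalings.

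The DNA-binding subunits of the complex went different ways on heat shock. HAP2 rose by 2.00 ± 0.08 and HAP5 by 0.81 ± 0.11, and HAP3 gave −0.05 ± 0.15, not called. CAT8, an activator of genes for non-fermentable carbon sources, rose by 2.82 ± 0.11 from a mean of 1.61 TPM, and MIG1, the glucose repressor, by 1.42 ± 0.05. HAP1, a haem-responsive activator, and PUF3, which binds mRNAs of mitochondrial proteins, rose by 0.71 ± 0.06 and 0.70 ± 0.09. ROX1, the repressor of hypoxic genes such as COX5B, fell by 0.41 (SE 0.07) on heat shock without 5ph-IAA and by 1.17 (SE 0.07) with 5ph-IAA at 30 °C. These are mRNA levels and give no measure of the factors' activity.

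**Figure D5:**
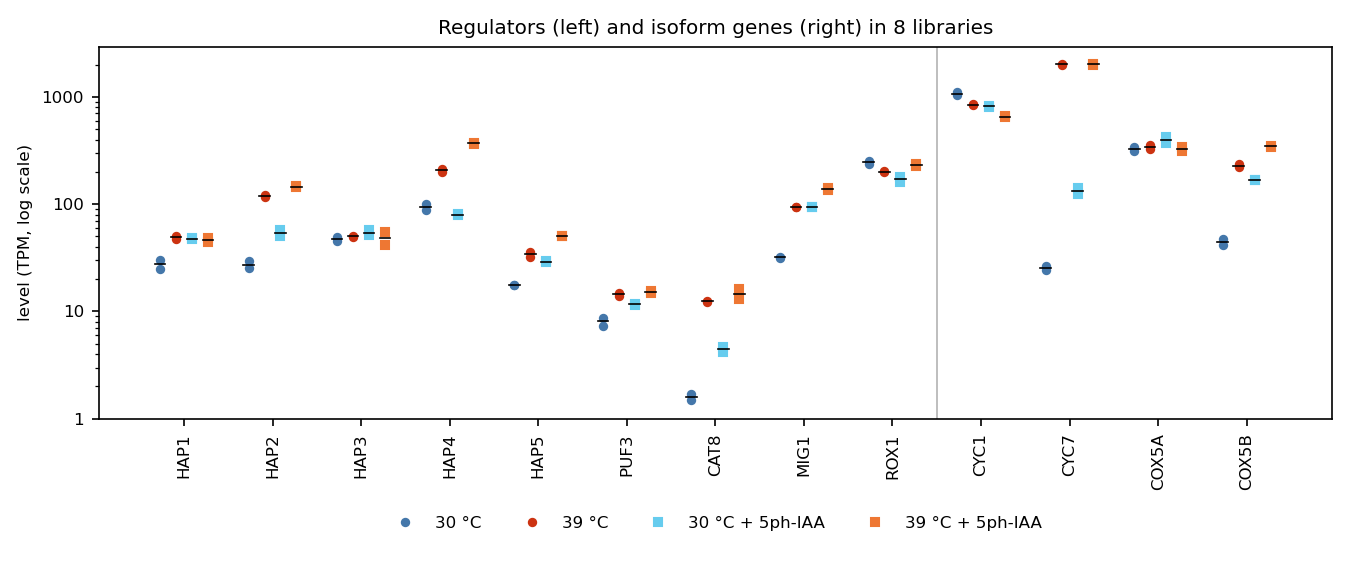
Level of 9 regulators and 4 isoform genes in TPM (log scale), with 1 point per library and a bar at the mean of 2. CYC7 goes from 26.4 and 24.4 TPM at 30 °C to 2033 and 2001 TPM at 39 °C, and HAP4 is highest at 39 °C with 5ph-IAA.

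The mitochondrially encoded partners of these subunits were not measured in a usable way. The 7 such genes in the tables (COX1, COX2, COX3, COB, ATP6, ATP8 and OLI1) summed to 0.981 to 5.05 TPM per library, ATP8 was at 0 throughout, and none passed the filter. The libraries were made from poly-A RNA, and yeast mitochondrial mRNAs carry no poly-A tail, so these values do not measure their abundance.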

How the data were processed

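Estimated counts and TPM per coding target, deposited by the authors with 1 table per library, come from kallisto according to the tool list, per the submitters' processing notes. The sources used here give no version, transcript set or build. All 31 members had the coding length of R64. The TruSeq RNA kit named in the labels' protocols does not mark strand. Groups came from titles. Counts were rounded and tested with edgeR 4.0.16 in R 4.3.3 (quasi-likelihood, TMM, filterByExpr; 1 fit of 8 libraries, 4 residual degrees of freedom, 5734 of 6034 targets tested). Tests were 2-sided, adjusted by Benjamini-Hochberg over all tested genes, with a threshold of 0.05 (called). A ± on a level is the SD. A ± or SE on a log2 fold change is an approximate SE, its absolute value divided by the square root of the quasi-likelihood F statistic. Since cultures are not described, p-values measure spread that may be technical. An exact permutation test of 2 against 2 libraries cannot go below p = 0.333.

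Alternatives were library totals alone, DESeq2 1.42.0, no filter, limma 3.58.1 on log2(TPM + 1) and log2(TPM + 0.1), a replicate block, a fit on the compared groups alone, and leaving out each library. Deposited target lengths gave no further alternative setting, and their relation to the heat shock change is described below. The scripts were tested on simulated data. Members and lists were chosen with earlier results of these data known. Values in every library are given for the members with the highest and lowest change per complex in heat shock without 5ph-IAA and in 5ph-IAA at 30 °C and with the largest called interaction. Of other lists at most 4 called genes with the largest changes per comparison are named, beside all regulators and isoforms; NDE1 and SHH3 were named after their values were seen.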

Additional observations from a re-analysis of the deposited data

Results flagged for a closer look

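In 8 members the heat shock change with 5ph-IAA differed from the change without it by a test of the difference (the edgeR interaction, adjusted p under 0.05). The log2 differences were −0.51 for SDH1, −0.68 for SDH2, −0.36 for SDH3, −0.52 for SDH4, −0.38 for QCR8, −0.40 for ATP15, −0.24 for ATP7 and 0.37 for ATP2. The first 5 were called in all 14 alternatives run for the interaction. No cause was tested.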

How the results depend on the processing

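The members' direction in the 2 comparisons with 5ph-IAA against none depended on scaling. So did that of ATP1, ATP2, ATP4 and ATP16 in heat shock with 5ph-IAA, and the counts called there and in the interaction. With 2 libraries a group, many counts also depended on single libraries. The cause was not tested beyond the construction of each scaling.

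With library totals alone, heat shock without 5ph-IAA had 6 members lower, 5ph-IAA at 30 °C had 26 higher and 0 lower, heat shock with 5ph-IAA had 10 lower, 5ph-IAA at 39 °C had 8 higher and 2 lower, and the interaction had 22 lower. On log2(TPM + 1) 5ph-IAA at 30 °C had 29 higher and 0 lower, heat shock with 5ph-IAA 7 lower, 5ph-IAA at 39 °C 19 higher and 1 lower, and the interaction 0 higher and 26 lower. Log2(TPM + 0.1) gave the same counts except 18 higher for 5ph-IAA at 39 °C. DESeq2 gave 2 lower for 5ph-IAA at 30 °C, 2 lower at 39 °C and 2 higher in the interaction. The fit on the compared groups alone gave 2 lower for 5ph-IAA at 30 °C.

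Leaving out 1 library gave 18 to 20 higher and 2 to 4 lower for heat shock without 5ph-IAA, 3 to 6 and 3 to 6 for 5ph-IAA at 30 °C, 18 to 21 and 1 to 4 for heat shock with 5ph-IAA, 1 to 4 and 2 to 10 for 5ph-IAA at 39 °C, and 1 to 2 and 5 to 10 in the interaction. For 5ph-IAA at 30 °C the higher count was 3 without the second library of either group, and the lower count was 3 without either 30 °C library or the second 5ph-IAA library. For heat shock with 5ph-IAA the lower count was 4 without the first and 1 without the second library at 39 °C with 5ph-IAA. For 5ph-IAA at 39 °C the higher count was 1 without the first 39 °C library and 2 without the first library of 39 °C with 5ph-IAA, and the lower count was 2 and 3 without the second libraries. The interaction had 2 higher without either of these second libraries.

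Turned positive for 5ph-IAA at 30 °C with library totals, log2(TPM + 1) and log2(TPM + 0.1) were QCR6 (0.24, 0.49, 0.49), RIP1 (0.25, 0.50, 0.50), COX4 (0.07, 0.31, 0.31), COX12 (0.12, 0.37, 0.37), ATP2 (0.18, 0.43, 0.43) and ATP3 (0.26, 0.50, 0.50). For 5ph-IAA at 39 °C the 2 TPM scales turned SDH4 (0.0552, 0.0554), QCR7 (0.12, 0.12), COX4 (0.0624, 0.0626), ATP14 (0.0662, 0.0663), ATP17 (0.0573, 0.0574) and ATP7 (0.15, 0.15; 0.0044 with library totals). For heat shock with 5ph-IAA the 3 settings turned ATP1 (−0.22, −0.11, −0.11), ATP4 (−0.16, −0.0609, −0.0611) and ATP16 (−0.17, −0.0634, −0.0635), and library totals turned ATP2 (−0.0564). No member called in heat shock without 5ph-IAA or in the interaction changed sign.

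Deviations of same-numbered libraries correlated by −0.14 to 0.11 over 6 pairs of groups. Such weak values give no sign of pairing but cannot exclude it, since counting noise enters them and the labels do not describe the cultures. The replicate block gave 20 higher and 4 lower, 5 and 6, 21 and 2, 4 and 10, and 1 and 8 in the 5 comparisons in the order above. COX7 and COX9, both under 200 bases, had too few counts to be tested. Of 137 targets under 200 bases, 115 were at 0 in every library, against 33 of 5897 longer ones. The cause was not tested.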

Other observations

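Without the filter on low counts COX7, a small complex IV subunit, was called in heat shock with 5ph-IAA alone, at 2.63 ± 1.10 (edgeR, adjusted p = 0.0439), on 2 and 0 counts against 6 and 6. In the 250 bases before the start codon alone, CCAAT was in 27 member windows (87.1%) and 35.4% of all windows, AGGGG in 13 (41.9%) and 18.8%, and GAA and TTC with 2 bases between them in 2 (6.45%) and 9.94%. The median heat shock change without 5ph-IAA was 0.61 over 25 tested members with CCAAT and 0.18 over the 4 without, and 0.40 over 13 with AGGGG and 0.59 over 16 without. Called higher were 18 of the 25 and 2 of the 4. For AGGGG they were 11 of the 13 and 9 of the 16, the reverse order of the medians. Of all tested genes 42.5% were called higher. In the full windows AGGGG was in 3 of 4 for complex II, 5 of 9 for complex III, 2 of 7 for complex IV and 4 of 11 for complex V. The 95% intervals overlapped widely, at 19.4% to 99.4% for complex II and 3.67% to 71.0% for complex IV. Within complex III, Spearman's rho between target length and the heat shock change without 5ph-IAA was −0.683 across 9 genes that share their libraries. QCR9 (201 bases) and QCR8 (285 bases) were highest there. The rho was also negative in complex II (−0.40, 4 genes), complex IV (−0.20, 5 genes) and complex V (−0.464, 11 genes). Over the 29 members it was −0.101, and over all tested genes 0.015. In heat shock with 5ph-IAA the rho was −0.633 in complex III, −0.40 in complex II and −0.20 in complex IV, but 0.209 in complex V. There it was 0.040 over the 29 members and 0.022 over all tested genes.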
